A study of Mus musculus with 10 samples.

Results

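The genes described are 44 chaperone genes of the cytosol and of mitochondria, out of 17493 genes in a deposited RNA sequencing table. They were chosen by name, with earlier results of these data known. They comprise the 8 subunits of the chaperonin, 5 prefoldin subunits, 6 mitochondrial chaperones and helpers, 4 cytosolic members of the HSP70 and HSP110 families, 6 cytosolic J-domain proteins, 3 BAG domain proteins, both cytosolic HSP90 genes, 8 HSP90 cochaperones and the heat shock factor genes Hsf1 and Hsf2. All 44 symbols were in the table and all 44 passed the filter on low values. Expression was measured in 2 libraries of mouse Th17 cells given TMP269 and in 2 given the solvent DMSO. Th17 cells are helper T cells that make IL-17. TMP269 is a small molecule inhibitor that is selective for the class IIa histone deacetylases. Both groups were made from naive CD4 T cells of C57BL/6 spleen, which were activated through CD3 and CD28 for 48 to 72 h in the presence of 20 ng/mL of IL-6 and 2.5 ng/mL of TGF-beta. No age of the mice, dose of TMP269, length of exposure or pooling of animals was given in the sources used here. The comparison asks which genes of these cells change when the enzyme activity of class IIa histone deacetylases is inhibited.

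Chaperones bind other proteins while these fold. The HSP70 system holds short stretches of a client through cycles of ATP hydrolysis that J-domain proteins start and nucleotide exchange factors end. Many clients then pass to HSP90, or to the ring-shaped chaperonin TRiC/CCT, which encloses actin and tubulin and receives them from prefoldin. Mitochondria hold their own set, built around HSP60 with its lid HSP10, the mitochondrial HSP70 and the HSP90 relative TRAP1. Heat shock factor 1 is known to raise transcription of many of these genes under protein stress, through inverted repeats of the unit NGAAN called heat shock elements. T cells that enlarge and divide after activation are known to make large amounts of chaperones.

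The promoter windows that carry the classical heat shock element are shown first, because this element is what stress-inducible chaperone genes are known by. RefSeq windows of build GRCm38.p6, reaching from 250 bases before a start site to 50 bases after it, were at hand for 35 of the 44 genes. Hsp90aa1, Hsp90ab1, Hspa8, Hspa9, Cct4, Ppid, Dnajc2, Hsf1 and Pfdn1 had no window and were not searched. The element was searched as 3 units on both strands, spelled GAANNTTCNNGAA or TTCNNGAANNTTC, and matches were allowed to overlap. It was held by windows of 5 of these 35 genes, Hspd1, Hspe1, Hsph1, Chordc1 and Dnajb6, and by 0.603% of all 32851 windows in the table. Counted by gene, it was held by 51 (0.541%) of the 9427 tested genes with a window. The Hspd1 and Hspe1 windows are not independent, since the genes lie head to head and 285 bases of one window are the opposite strand of the other. Some genes have a second start site in the table. The match lies 16 bases into the transcribed part from that of Hsph1 and 127 bases before that of Dnajb6, and a second Hspd1 window holds no match. In the sequences, written 5′ to 3′ along the gene's own strand, capitals mark matches to the 3-unit element. The first is the window of Hspe1 (chr1:55087898-55088197, plus strand), where overlapping matches begin 89 and 84 bases before the start site. The second is that of Hsph1 (chr5:149636287-149636586, minus strand), where the match begins 37 bases into the transcribed part. The third is that of Chordc1 (chr9:18292017-18292316, plus strand), where overlapping matches span the start site, the first beginning 4 bases before it. The fourth is that of Dnajb6 (chr5:29735648-29735947, plus strand), with a match beginning 46 bases before the start site. The last is that of Bag2 (chr1:33757701-33758000, minus strand), shown without capitals because it holds no match although Bag2 had the lowest fold change of the 44 genes.
Hspe1: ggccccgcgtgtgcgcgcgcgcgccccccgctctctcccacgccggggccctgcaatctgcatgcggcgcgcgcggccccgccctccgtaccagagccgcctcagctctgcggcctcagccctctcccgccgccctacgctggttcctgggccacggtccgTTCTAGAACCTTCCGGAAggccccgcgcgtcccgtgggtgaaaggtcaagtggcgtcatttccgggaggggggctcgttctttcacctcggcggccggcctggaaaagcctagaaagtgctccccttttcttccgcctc
Hsph1: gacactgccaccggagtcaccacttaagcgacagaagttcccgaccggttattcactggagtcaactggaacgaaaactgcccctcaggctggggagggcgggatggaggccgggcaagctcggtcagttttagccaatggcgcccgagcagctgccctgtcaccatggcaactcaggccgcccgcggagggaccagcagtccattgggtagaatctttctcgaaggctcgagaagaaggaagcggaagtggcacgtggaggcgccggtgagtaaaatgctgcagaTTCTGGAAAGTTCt
Chordc1: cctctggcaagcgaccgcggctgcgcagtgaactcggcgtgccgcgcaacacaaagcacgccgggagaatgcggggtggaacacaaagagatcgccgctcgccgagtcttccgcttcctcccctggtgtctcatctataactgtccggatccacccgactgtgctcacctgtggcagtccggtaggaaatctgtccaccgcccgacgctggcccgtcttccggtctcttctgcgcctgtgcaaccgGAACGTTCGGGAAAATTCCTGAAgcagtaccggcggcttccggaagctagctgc
Dnajb6: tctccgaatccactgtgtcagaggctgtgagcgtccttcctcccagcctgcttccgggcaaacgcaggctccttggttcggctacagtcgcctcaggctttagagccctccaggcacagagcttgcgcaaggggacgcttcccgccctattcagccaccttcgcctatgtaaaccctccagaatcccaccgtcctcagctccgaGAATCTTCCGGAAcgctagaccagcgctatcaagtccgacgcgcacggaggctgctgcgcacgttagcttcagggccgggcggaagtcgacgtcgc
Bag2: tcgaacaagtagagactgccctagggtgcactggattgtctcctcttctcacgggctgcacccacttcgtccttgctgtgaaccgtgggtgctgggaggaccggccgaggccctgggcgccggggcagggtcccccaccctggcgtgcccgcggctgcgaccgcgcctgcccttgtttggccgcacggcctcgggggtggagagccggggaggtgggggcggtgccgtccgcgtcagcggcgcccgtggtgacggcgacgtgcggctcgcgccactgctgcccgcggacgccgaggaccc

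Recovered reads numbered 20007042 to 25321455 per library, and the chaperone genes had between 204 and 116327 reads each in a library. The labelled cell type was checked against marker lists. The 9 T cell markers in the table summed to 72594 and 74859 in the TMP269 libraries, against 64160 and 69686 in the DMSO libraries. Of these 9, Cd5 was called higher (limma adjusted p = 0.00356) and 8 were not called. Cd5 stood at 13911 and 12217 with TMP269, against 9064 and 8439 with DMSO. The log2 fold change was positive for 7 of the 9 and negative for 2, Cd3g and Cd2. B cell markers were present and moved with the groups. Of 10 B cell markers, 8 were called lower, none was at 0, and their sum was 2937 and 2958 in the TMP269 libraries, against 5510.2 and 5695 in the DMSO libraries. Of 10 myeloid markers 8 were in the table, 4 passed the filter and 1, Cd68, was called higher. The 8 summed to 318 and 363 in the TMP269 libraries, against 141 and 125 in the DMSO libraries. Cd68 alone made up most of each sum, at 263 and 299 with TMP269, against 97.2 and 83.2 with DMSO. Of the other tested markers, Fcgr3 had a positive log2 fold change and Csf1r and Itgam negative ones, and none was called. The CD8 T and NK cell markers, of which 5 of 9 passed the filter, summed to 484 and 739.9 in the TMP269 libraries, against 534 and 708 in the DMSO libraries. The 2 erythroid markers in the table stayed at or below 12.3 in sum. The part of these other cells in the chaperone results was not tested. In bulk RNA, fewer cells of a type and less RNA per cell cannot be told apart.

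In Th17 cells with TMP269, most chaperone genes were lower by moderate amounts and none of the 44 was called higher. Of the 44 genes, 29 fell and 0 rose at a Benjamini-Hochberg adjusted p under 0.05 in limma, and 15 did not pass. Over all 12535 genes tested, 14.7% were called lower and 12.8% higher, or 27.5% in either direction. Among the 4975 tested genes with a mean value of at least 1000, a level that most chaperone genes reach, 23.1% were called lower and 13.9% higher. Because the 44 genes were chosen with earlier results known, their share was not tested against these. At an unadjusted p under 0.05 in limma, 31 of the 44 genes were lower and 0 higher, against 2662 and 2409 of the 12535 tested. The edgeR quasi-likelihood test on the recovered reads called 29 lower and 0 higher, where 14.0% of all tested genes were called lower. DESeq2 called 30 and 0, where 12.2% of all tested genes were called lower. A fold is the level with TMP269 over the level with DMSO. Folds among the 29 genes that fell ran from 0.530 for Bag2 to 0.827 for Dnaja2. The median log2 fold change was -0.37 over the 44 genes and -0.00365 over all tested genes.

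**Figure D1:**
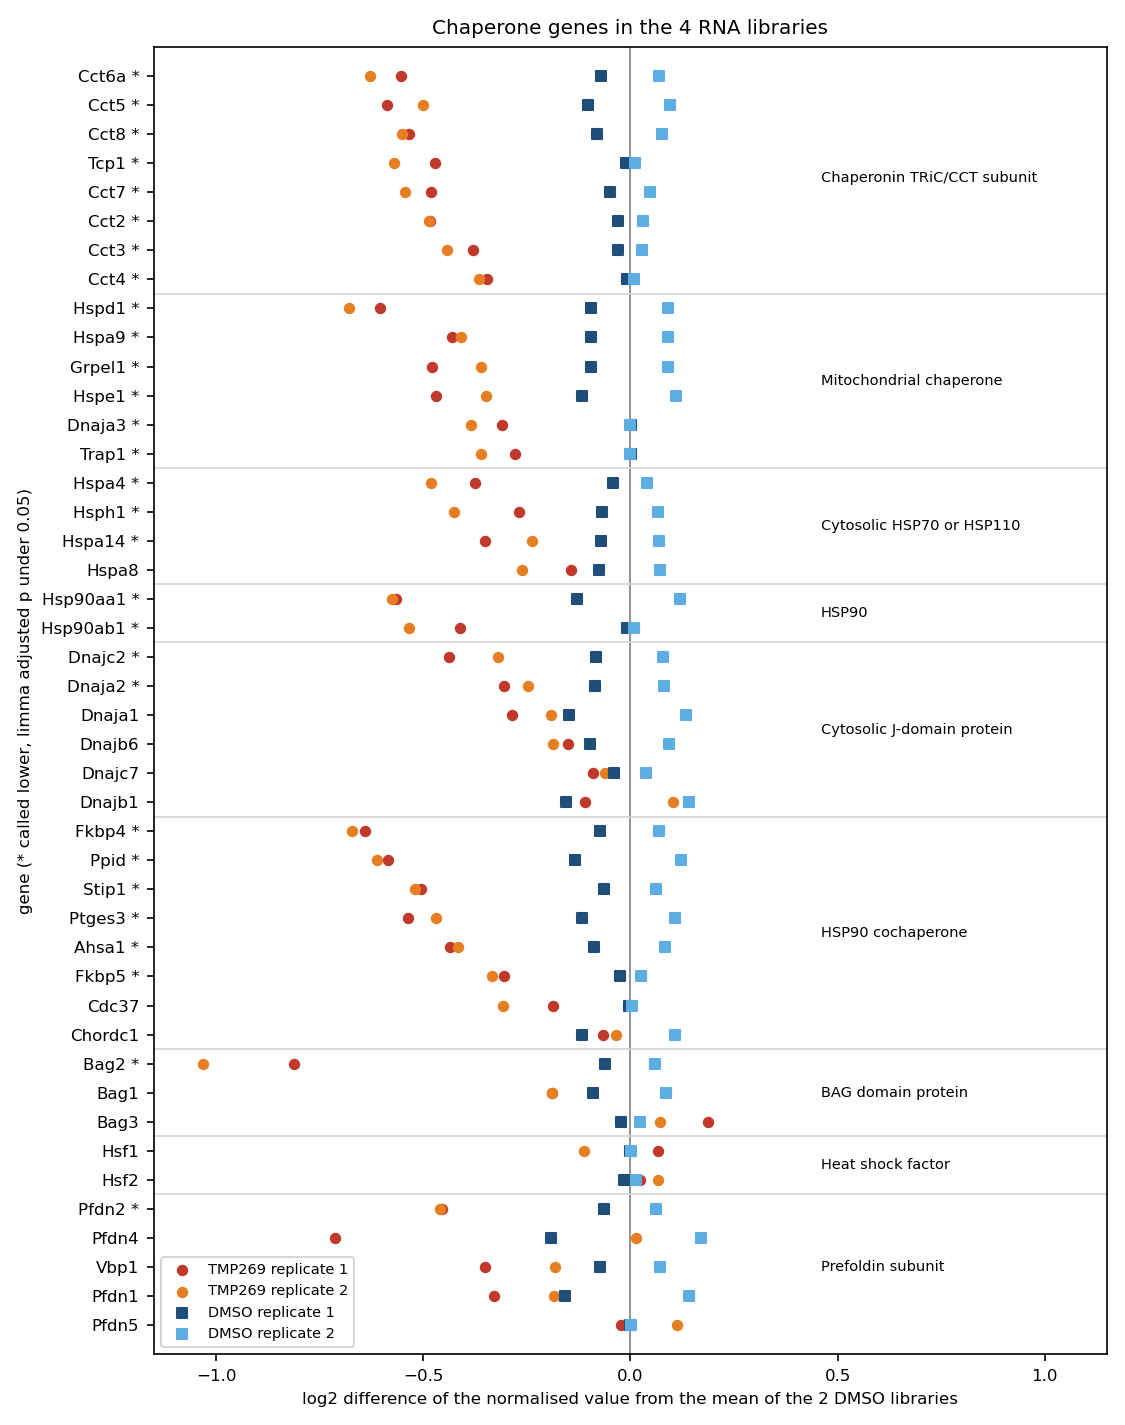
The log2 difference of each gene's normalised value from its DMSO mean is plotted along the horizontal axis, with 1 point per library (circles TMP269, squares DMSO) and 1 row per gene, grouped by class. Circles lie left of both squares for 37 of the 44 genes, and the lighter square, DMSO replicate 2, lies right of the darker one for 42 of them.

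The groups did not overlap for most members. Both TMP269 libraries lay below both DMSO libraries for 37 of the 44 genes, an order found in 34% of all tested genes. They lay above both for 2, Bag3 and Hsf2, an order found in 32.6% of all tested genes, and overlapped for 5. Normalised values, which are reads divided by the library's size factor, summed over the 44 genes to 389831 and 375296 in the TMP269 libraries, against 483924 and 525947 in the DMSO libraries, a ratio of 0.758. The same ratio was 0.930 over all tested genes. As a share of recovered reads the 44 genes made up 1.81% and 1.70% of the TMP269 libraries, against 2.12% and 2.18% of the DMSO libraries.

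The 2 DMSO libraries differed from each other in these genes. Reads of the ribosomal RNA gene Rn45s took 0.716% and 1.12% of the TMP269 libraries, against 0.836% and 2.20% of the DMSO libraries, highest in DMSO replicate 2. With Rn45s left out of equal library totals, an alternative chosen after seeing the data, 24 members were called lower, against 22 with it counted. Of all tested genes, 9.18% and 8.31% were called lower in these 2 settings. DMSO replicate 2 was above DMSO replicate 1 for 42 of the 44 genes, and for 53.4% of all tested genes. Between the TMP269 libraries, replicate 2 was above replicate 1 for 18 of the 44, and for 50.8% of all tested genes. The median of the members' log2 deviations from their gene means was -0.20 and -0.19 in TMP269 replicates 1 and 2, against 0.12 and 0.26 in DMSO replicates 1 and 2. With DMSO replicate 2 left out, the median log2 fold change was -0.32 over the members and -0.00840 over all tested genes. The same medians were -0.45 and -0.00824 when DMSO replicate 1 was dropped. Leaving out TMP269 replicate 1 gave -0.36 and 0.00292, and leaving out TMP269 replicate 2 gave -0.38 and -0.00343. No member was called higher without any 1 of the 4 libraries. A total of 16 of the 29 genes kept the call without any 1 library and under all 16 alternative settings. They are 6 chaperonin subunits, 5 HSP90 cochaperones, Hspd1, Hspa4, Hsp90aa1, Bag2 and Pfdn2.

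The result moved with scaling. With equal library totals 22 members and 8.31% of all tested genes were called lower, and 0 members were called higher. The median log2 fold change was then -0.26 over the members and 0.10 over all tested genes. The distance between these 2 medians was -0.36, and -0.36 with the authors' size factors. Rescaling whole libraries shifts every gene's log2 fold change by nearly the same amount, so this distance could hardly change. Its equality is therefore no test of stability to scaling. Higher genes made up 46.5% of all calls with the authors' size factors and 67.3% with equal totals. The sign of the fold change was negative for 40 members with the authors' factors and for 37 with equal totals, where Dnajc7, Hsf1 and Chordc1 turned positive. The 7 members whose call was lost with equal totals were Hspa14, Hsph1, Hsp90ab1, Dnaja2, Dnaja3, Trap1 and Fkbp5.

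**Figure D2:**
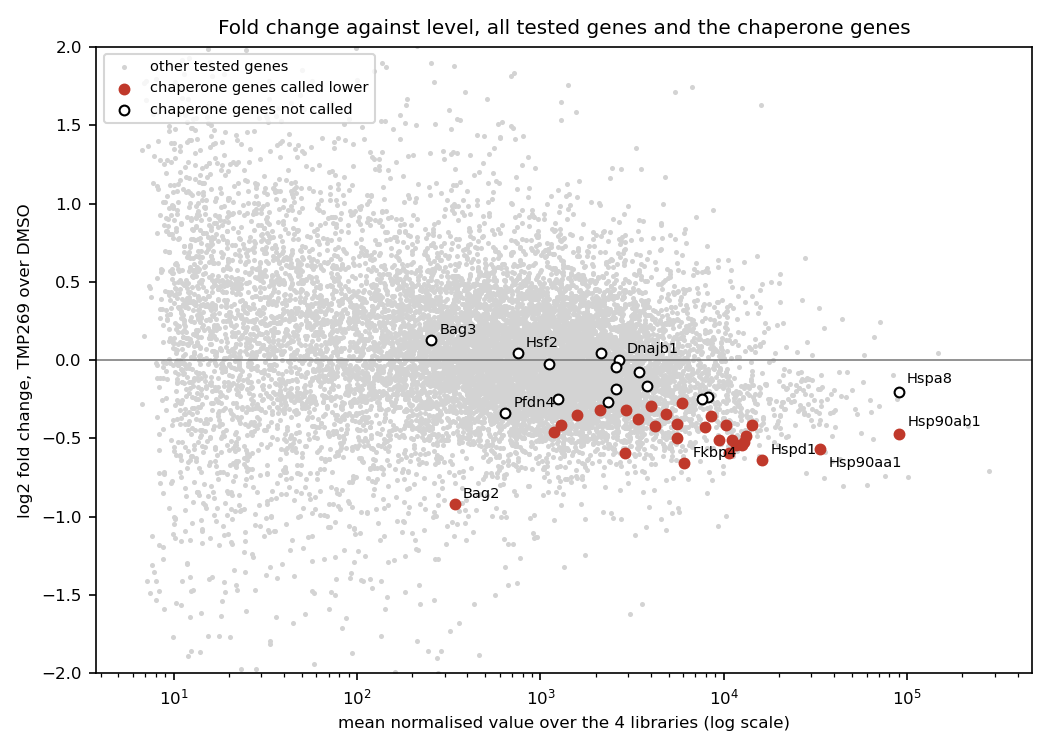
Each tested gene's log2 fold change (TMP269 over DMSO) is plotted against its mean normalised value on a log axis, with the chaperone genes as large points, filled where called lower. The filled points lie below 0 across the range of levels, from Bag2 near the middle to Hsp90ab1 at the right, and 70 genes with a log2 fold change beyond 2 in size lie outside the axis.

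All 8 subunits of the chaperonin fell. The chaperonin stacks a pair of rings, each with 1 copy of every subunit, and folds newly made actin and tubulin. Summed over the 8 genes, normalised values were 75997 and 74362 in the TMP269 libraries, against 102860 and 109895 in the DMSO libraries, and the gap between the groups was wider than the gap within either. Cct6a, which encodes the zeta subunit, had the largest fall, with 8745 and 8309 in TMP269 replicates 1 and 2, against 12224 and 13468 in DMSO replicates 1 and 2. Its log2 fold change was -0.59 ± 0.09 (SE), a fold of 0.664 (limma adjusted p = 0.00232). Cct4, the delta subunit, had the smallest fall, with 7526 and 7428 in TMP269 replicates 1 and 2, against 9521 and 9625 in DMSO replicates 1 and 2 (log2 fold change -0.36 ± 0.08, limma adjusted p = 0.0109). The 4 libraries separated cleanly for both genes, and Cct4 replicates were close in each group. Between these extremes lay Cct5, the epsilon subunit, at 0.687-fold, Cct8, the theta subunit, at 0.687-fold, Tcp1, the alpha subunit, at 0.697-fold, Cct7, the eta subunit, at 0.701-fold, Cct2, the beta subunit, at 0.715-fold, and Cct3, the gamma subunit, at 0.752-fold, with limma adjusted p-values of 0.00356 to 0.00760.

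Subunits kept nearly the same proportions of the chaperonin sum. Cct4 took 9.90% and 9.99% in the TMP269 libraries, against 9.26% and 8.76% in the DMSO libraries, the largest shift among the 8 subunits. Cct6a took 11.5% and 11.2% in the TMP269 libraries, against 11.9% and 12.3% in the DMSO libraries, so Cct4 had a larger share and Cct6a a smaller one in both TMP269 libraries than in either DMSO library. The shift was at most 0.938 percentage points for any subunit, and no test was made of it. Without TMP269 replicate 2 the Cct3 call was lost (limma adjusted p = 0.0552, in a range of 5.25e-06 to 0.0552 over 16 alternatives). The call of Cct4 failed without TMP269 replicate 1 (limma adjusted p = 0.0619) or TMP269 replicate 2 (0.0696, range 1.78e-05 to 0.0696).

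Of the 5 prefoldin subunit genes, which encode the hexamer that hands unfolded actin and tubulin to the chaperonin, Pfdn2 fell and the other 4 did not pass. This share of 20% is near those over all tested genes (14.7%) and at a mean value of at least 1000 (23.1%). Pfdn2 stood at 995 and 991 in TMP269 replicates 1 and 2, against 1305 and 1422 in DMSO replicates 1 and 2 (log2 fold change -0.46 ± 0.09, limma adjusted p = 0.00618), and its TMP269 replicates were nearly equal. Pfdn5 stood at 2079 and 2281 with TMP269, against 2110.0 and 2111 with DMSO (log2 fold change 0.05 ± 0.08, limma adjusted p = 0.709), with overlapping groups. Vbp1, the gene of prefoldin subunit 3, stood at 2002 and 2250.0 with TMP269, against 2426 and 2682 with DMSO. It missed the threshold (limma adjusted p = 0.0596), and passed it as lower without TMP269 replicate 2 (0.0430) or DMSO replicate 1 (0.0360), in a range of 0.000463 to 0.359 over 16 alternatives. Pfdn1 was at 1076 and 1190.1 with TMP269, against 1213 and 1492 with DMSO (limma adjusted p = 0.131, 0.0232 without DMSO replicate 1, range 0.00291 to 0.602). Pfdn4 had the widest spread of the 44 genes, at 433 and 716 with TMP269, against 621 and 798 with DMSO, so that its groups overlapped (limma adjusted p = 0.269, 0.00112 without TMP269 replicate 2, range 0.00112 to 0.938). Which prefoldin genes were called lower thus changed with the library left out.

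All 6 genes of mitochondrial chaperones and their helpers fell. Their summed normalised value was 34822 and 34600.3 in the TMP269 libraries, against 45951 and 51747 in the DMSO libraries, and the TMP269 libraries were close to each other. Hspd1, which encodes HSP60, the barrel-shaped folding chamber of the matrix, fell most, with 12936 and 12271 in TMP269 replicates 1 and 2, against 18402 and 20916 in DMSO replicates 1 and 2 (log2 fold change -0.64 ± 0.10, a fold of 0.642, limma adjusted p = 0.00258). Hspe1, which encodes the HSP10 lid of that chamber and whose window is shown above, stood at 4549 and 4941 in TMP269 replicates 1 and 2, against 5803 and 6789 in DMSO replicates 1 and 2 (log2 fold change -0.40 ± 0.10, limma adjusted p = 0.0153). Within a library the ratio of the Hspe1 to the Hspd1 value was 0.352 and 0.403 in the TMP269 libraries, against 0.315 and 0.325 in the DMSO libraries, higher in both TMP269 libraries. Hspa9, the mitochondrial HSP70 known as mortalin, fell to 0.749-fold, with 12244 ± 129.9 with TMP269 and 16378 ± 1491 with DMSO (SD, n = 2 each). Grpel1, the nucleotide exchange factor that resets it, fell to 0.750-fold, and Dnaja3, its J-domain partner, to 0.786-fold. Trap1, the mitochondrial relative of HSP90, had the smallest fall of the 6, with 2693 and 2542 with TMP269, against 3265 and 3263 with DMSO (log2 fold change -0.32 ± 0.08, limma adjusted p = 0.0156).

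Hspd1 was the member of this class that passed without any 1 library. The other 5 lost the call without some library. Without TMP269 replicate 1 the limma adjusted p was 0.0659 for Hspe1, 0.0662 for Hspa9 and 0.0521 for Grpel1, while leaving out DMSO replicate 2 gave 0.0727, 0.0592 and 0.0730 for the same 3 genes. Dnaja3 and Trap1 lost the call without TMP269 replicate 2 (limma adjusted p = 0.0776 and 0.111) and with equal library totals (0.0634 and 0.0794). Over 16 alternatives the adjusted p ran over 3.21e-06 to 0.0727 for Hspe1, 9.96e-06 to 0.0662 for Hspa9, 1.06e-05 to 0.0730 for Grpel1, 5.39e-05 to 0.0776 for Dnaja3 and 5.85e-05 to 0.111 for Trap1. The number of the 6 genes called lower was 3 without TMP269 replicate 1, 3 without DMSO replicate 2, 4 without TMP269 replicate 2 and 4 with equal totals.

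**Figure D3:**
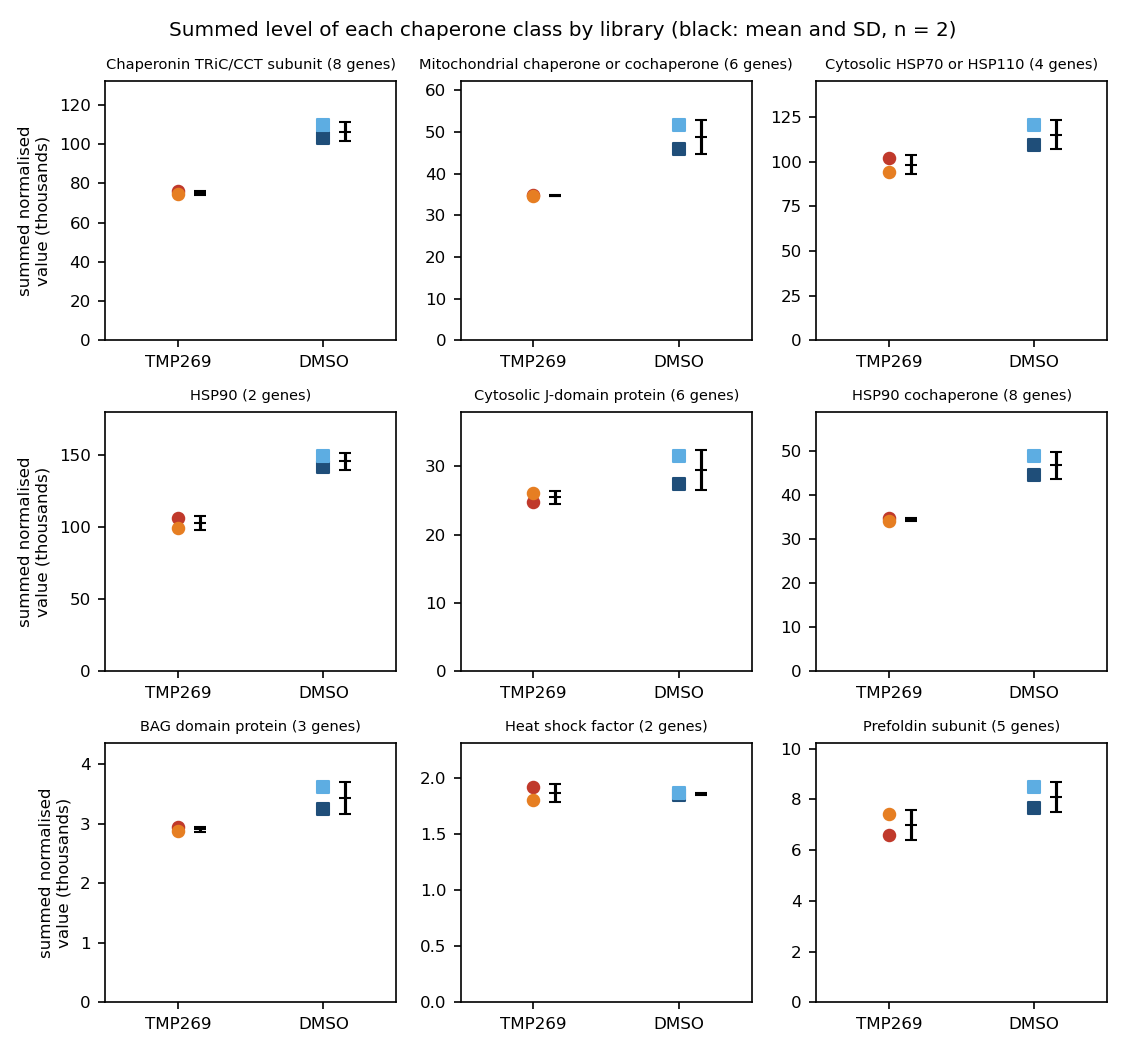
Each panel gives the summed normalised value of 1 class of chaperone genes, on a vertical axis in units of 1000, with circles for the 2 TMP269 libraries and squares for the 2 DMSO libraries, DMSO replicate 2 in the lighter shade, and the mean and SD in black. The TMP269 sums lie below both DMSO sums in every class but that of the heat shock factors, where the groups overlap.

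Among the cytosolic HSP70 and HSP110 genes, 3 of 4 fell. Hspa4, an HSP110 family member that exchanges nucleotide on HSP70, stood at 6968 and 6477 in TMP269 replicates 1 and 2, against 8787 and 9303 in DMSO replicates 1 and 2 (log2 fold change -0.43 ± 0.08, limma adjusted p = 0.00682). Hsph1, the other HSP110 gene, whose window holds the heat shock element shown above, fell to 0.787-fold (limma adjusted p = 0.0209), with 4481 and 4015 with TMP269, against 5142 and 5653 with DMSO. Hspa14, the HSP70 of the ribosome-associated complex, fell to 0.817-fold (limma adjusted p = 0.0334). Hspa8, the constitutive cytosolic HSP70, was the member that did not pass, with 86989 and 80195 in TMP269 replicates 1 and 2, against 91215 and 101086 in DMSO replicates 1 and 2 (log2 fold change -0.20 ± 0.14, limma adjusted p = 0.317). Its TMP269 values lay below its DMSO values, but the gap between the groups was smaller than the gap within either. The Hsph1 call was lost without TMP269 replicate 2 (0.146) or DMSO replicate 2 (0.0947), in a range of 9.11e-05 to 0.146 over 16 alternatives, and that of Hspa14 without TMP269 replicate 1 (0.222) or DMSO replicate 2 (0.158), in a range of 0.000121 to 0.222. Of the 4 genes, 1 was called lower without DMSO replicate 2, and 1 with equal totals. Hspa8 and Hspe1, like Hsp90ab1 and Ptges3, have processed pseudogenes with which the counting may have split reads.

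Of the 6 genes of J-domain proteins, which deliver clients to HSP70 and start its ATP hydrolysis, 2 fell. Over all tested genes 14.7% fell, and 23.1% at a mean value of at least 1000. Dnajc2, the J-domain partner of Hspa14 on the ribosome, stood at 2851 and 3093 in TMP269 replicates 1 and 2, against 3648 and 4076 in DMSO replicates 1 and 2 (log2 fold change -0.38 ± 0.09, limma adjusted p = 0.0140), with separate groups. Dnaja2, a general cochaperone of HSP70, stood at 5247 and 5467 with TMP269, against 6111 and 6859 with DMSO and was near the threshold (limma adjusted p = 0.0437). Dnajb1, the classical stress-inducible HSP40, had the highest fold change of the class, with 2479 and 2867 in TMP269 replicates 1 and 2, against 2399 and 2947 in DMSO replicates 1 and 2 (log2 fold change 0.00394, SE 0.114, limma adjusted p = 0.983). Its groups overlapped, and in each group replicate 2 was the higher. Dnaja1, another HSP40, was at 0.851-fold, Dnajb6, which is known to keep proteins from aggregating, at 0.892-fold and Dnajc7, which also binds HSP90, at 0.949-fold, none of them past the threshold (limma adjusted p = 0.131, 0.184 and 0.487). The fold change of Dnajc7 was negative with the authors' size factors and positive with equal totals. Without TMP269 replicate 1 or DMSO replicate 2, 0 of the 6 genes were called. The limma adjusted p was then 0.0768 and 0.0684 for Dnajc2 (range 6.47e-06 to 0.0768 over 16 alternatives) and 0.224 and 0.214 for Dnaja2 (range 0.000312 to 0.224), which also failed without TMP269 replicate 2 (0.100). Without DMSO replicate 1, 3 were called, Dnaja1 among them (0.0193, range 0.00255 to 0.596).

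Both cytosolic HSP90 genes fell. HSP90 completes the folding of kinases, steroid receptors and other signalling proteins. Hsp90aa1, the gene of the more inducible form, stood at 27028 and 26827 in TMP269 replicates 1 and 2, against 36546 and 43424 in DMSO replicates 1 and 2 (log2 fold change -0.57 ± 0.12, a fold of 0.676, limma adjusted p = 0.00888). Hsp90ab1, the gene of the more constitutive form, stood at 79153 and 72699.6 in TMP269 replicates 1 and 2, against 104668 and 105815 in DMSO replicates 1 and 2 (log2 fold change -0.47 ± 0.14, a fold of 0.721, limma adjusted p = 0.0331). The DMSO values of Hsp90aa1 spread more widely than those of Hsp90ab1, and the TMP269 values spread less. Within a library the ratio of the Hsp90aa1 to the Hsp90ab1 value was 0.341 and 0.369 in the TMP269 libraries, against 0.349 and 0.410 in the DMSO libraries, and the groups overlapped. The Hsp90ab1 call held without DMSO replicate 1, and was lost when TMP269 replicate 1 was left out (limma adjusted p = 0.196), and without TMP269 replicate 2 (0.301) or DMSO replicate 2 (0.0747) and with equal totals (0.0518), in a range of 4.89e-06 to 0.301 over 16 alternatives. Hspa8 stood higher relative to Hsp90ab1 in both TMP269 libraries, with a ratio of 1.10 and 1.10 in the TMP269 libraries, against 0.871 and 0.955 in the DMSO libraries.

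Of the 8 HSP90 cochaperone genes, 6 fell and 2 did not pass. Summed normalised values of the 8 were 34663 and 34128 in the TMP269 libraries, against 44406 and 48844 in the DMSO libraries. Fkbp4, which encodes FKBP52, an immunophilin of steroid receptor complexes, had the smallest p of the 44 genes, with 4770.0 and 4664 in TMP269 replicates 1 and 2, against 7069.5 and 7804 in DMSO replicates 1 and 2 (log2 fold change -0.65 ± 0.08, a fold of 0.635, limma adjusted p = 0.00118). Ppid, the gene of cyclophilin 40, another immunophilin of the same complexes, fell to 0.663-fold, with 2326 and 2281 with TMP269, against 3177 and 3798 with DMSO (limma adjusted p = 0.00334). Stip1, the HOP adaptor that links HSP70 to HSP90, fell to 0.702-fold, Ptges3, the p23 protein that closes the HSP90 cycle, to 0.707-fold, and Ahsa1, the activator of the HSP90 ATPase, to 0.746-fold. Fkbp5, which encodes FKBP51, the counterpart of FKBP52, fell to 0.802-fold, with 1902 and 1863 with TMP269, against 2306 and 2391 with DMSO (limma adjusted p = 0.0158). Its call was lost without TMP269 replicate 1 (0.0579), TMP269 replicate 2 (0.0795) or DMSO replicate 2 (0.0689), in a range of 8.66e-05 to 0.0795 over 16 alternatives.

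Cdc37, the cochaperone that brings kinases to HSP90, and Chordc1, whose window holds the heat shock element at its start site, were the cochaperone genes that did not pass. Cdc37 stood at 7269 and 6682 in TMP269 replicates 1 and 2, against 8256 and 8291 in DMSO replicates 1 and 2, with separate groups (log2 fold change -0.25 ± 0.08, limma adjusted p = 0.0520, but 0.0493 in DESeq2, in a range of 0.00103 to 0.358 over 16 alternatives). Chordc1 stood at 2506 and 2563 in TMP269 replicates 1 and 2, against 2421 and 2828 in DMSO replicates 1 and 2 (log2 fold change -0.05 ± 0.09, limma adjusted p = 0.737). Both TMP269 values of Chordc1 lay between the DMSO values, and its fold change was positive with equal totals.

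Of the 3 BAG domain genes, 1 fell and 2 did not pass, where 14.7% of all tested genes fell. BAG domain proteins bind the ATPase domain of HSP70 and promote release of its client. Bag2, known to inhibit the ubiquitin ligase CHIP, had the lowest fold change of the 44 genes, with 253 and 217 in TMP269 replicates 1 and 2, against 426 and 463 in DMSO replicates 1 and 2 (log2 fold change -0.92 ± 0.13, a fold of 0.530, limma adjusted p = 0.00195). Bag3, a stress-inducible protein of chaperone-assisted autophagy, was above DMSO in both TMP269 libraries without passing, with 276 and 255 with TMP269, against 238 and 246 with DMSO (log2 fold change 0.13 ± 0.13, limma adjusted p = 0.488). The ratio of the Bag3 to the Bag2 value was 1.09 and 1.17 in the TMP269 libraries, against 0.560 and 0.531 in the DMSO libraries. Bag1 stood at 2414 and 2411 with TMP269, against 2585 and 2918 with DMSO and did not pass (limma adjusted p = 0.132). Its TMP269 replicates were nearly equal, and its DMSO replicates lay further apart.

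Neither heat shock factor gene changed past the threshold. Hsf1, the main regulator of the heat shock response, stood at 1173 and 1036 in TMP269 replicates 1 and 2, against 1120.2 and 1120.5 in DMSO replicates 1 and 2 (log2 fold change -0.02 ± 0.09, limma adjusted p = 0.873). Hsf2, a relative active in development and differentiation, stood at 750.4 and 772 in TMP269 replicates 1 and 2, against 731 and 745 in DMSO replicates 1 and 2 (log2 fold change 0.04 ± 0.09, limma adjusted p = 0.742). The TMP269 values of Hsf1 lay on either side of its DMSO values, while those of Hsf2 lay just above. With limma, 0 of the 2 genes had an unadjusted p under 0.05, and edgeR and DESeq2 called 0. Heat shock factor 1 is known to be controlled largely at the protein level, which these libraries do not measure.

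Fold changes were set beside the heat shock element. The 5 genes whose windows hold the 3-unit element had log2 fold changes of -0.64 for Hspd1 to -0.05 for Chordc1, and 3 of them fell (Hspd1, Hspe1 and Hsph1). A shorter element of 2 units, GAANNTTC or TTCNNGAA, lies within every 3-unit match and was held by windows of 12 of the 35 genes. Of all tested genes with a window, 14.0% held it. Of these 12 genes, 7 fell. Of the 23 genes whose windows hold no 2-unit element, 16 fell, with a median log2 fold change of -0.35, against -0.38 for the 12. Over all tested genes 14.7% fell. Genes without a window, both HSP90 genes and Hspa8 among them, are in neither count. A match is a description of these letters, and binding was not measured at these windows here. In a list of 25 heat shock response genes, 21 were tested, 10 fell and 0 rose (limma, 2 higher at an unadjusted p under 0.05, and 0 in edgeR and DESeq2). This count mostly repeats the members, since 14 of the 21 and 9 of the 10 are among the 44 genes. Of the other 7 tested, 1 fell, a share near the 14.7% of all tested genes. It was Cacybp, which encodes a calcyclin-binding protein, at 0.711-fold (limma adjusted p = 0.0366). Its call was lost with TMP269 replicate 1 left out (0.0501) and with DMSO replicate 2 left out (0.158), in a range of 6.60e-07 to 0.158 over 16 alternatives. The inducible HSP70 genes Hspa1a and Hspa1b, near-identical copies whose reads may be split, also belong to the list. Hspa1a stood at 42.4 and 39.9 with TMP269, against 29.7 and 19.3 with DMSO, and Hspa1b at 83.7 and 58.9 with TMP269, against 53.1 and 39.8 with DMSO. Both genes were above DMSO in both TMP269 libraries and neither passed (limma adjusted p = 0.106 and 0.129). Without DMSO replicate 1, 11 genes of the list were called lower and 2 higher, and without DMSO replicate 2, 6 lower and 0 higher. With equal library totals 7 were called lower and 1 higher.

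Other chaperone genes were counted next, from lists that were also chosen with earlier results of these data known. Of 57 further cytosolic chaperones and cochaperones, 49 were tested, 11 fell (22.4%) and 1 rose, with a median log2 fold change of -0.06 (0.05 with equal totals). The shares over all tested genes were 14.7% lower and 12.8% higher, and 23.1% and 13.9% at a mean value of at least 1000. The difference from the 44 genes was not tested. Dnajc21, a J-domain protein of ribosome maturation, fell to 0.693-fold, Nudc, an HSP90 cochaperone, to 0.706-fold and the immunophilin gene Fkbp1a to 0.745-fold (limma adjusted p = 0.00196, 0.00406 and 0.00894). The 1 gene that rose was Dnajb2, a J-domain protein that also binds ubiquitin, with 749 and 696 with TMP269, against 589 and 498 with DMSO (limma adjusted p = 0.0269). The Fkbp1a call was lost without TMP269 replicate 1 (0.0640, range 2.10e-06 to 0.0640 over 16 alternatives), and that of Dnajb2 without TMP269 replicate 1 (0.102) or DMSO replicate 2 (0.143, range 0.000156 to 0.143). Of this list 3 genes were called lower and 0 higher without TMP269 replicate 1 or without DMSO replicate 2, 6 lower without TMP269 replicate 2, and 5 lower and 3 higher with equal totals.

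Of 16 further genes of mitochondrial protein quality control, 3 fell, or 18.8%, and 0 rose (limma, 1 higher at an unadjusted p under 0.05, and 0 in edgeR and DESeq2). Lonp1, the main protease of the matrix, stood at 4530.2 and 4089.7 with TMP269, against 7151 and 6279 with DMSO (a fold of 0.642, limma adjusted p = 0.00211). Afg3l2, a subunit of the inner membrane AAA protease, fell to 0.701-fold (limma adjusted p = 0.00196), and Dnajc11 to 0.777-fold (limma adjusted p = 0.0152, or 0.113 when TMP269 replicate 2 was left out, range 3.18e-05 to 0.113 over 16 alternatives). The share of falls is near the 14.7% of all tested genes. The median log2 fold change of the 16 was -0.15, and -0.05 with equal totals, where 2 were called lower and 1 higher.

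Among clients of the chaperonin, tubulin genes were called in both directions. Of 15 tubulin and actin genes, 5 fell and 3 rose, where 14.7% of all tested genes fell and 12.8% rose. The balance moved with the method, with 2 called lower and 3 higher with equal library totals, and 7 lower and 2 higher in DESeq2. The 15 genes had summed normalised values of 211570 and 202002 in the TMP269 libraries, against 246817 and 247056 in the DMSO libraries. Most of this sum came from Actb, Actg1 and Tubb5, at 0.841-fold, 0.840-fold and 0.851-fold. None of them passed in limma (adjusted p = 0.200, 0.157 and 0.148), but each passed as lower in DESeq2 (adjusted p = 0.0331, 0.0283 and 0.0354). Tuba1b, an abundant alpha-tubulin, stood at 7104 and 7969 with TMP269, against 10104 and 11282 with DMSO (a fold of 0.705, limma adjusted p = 0.00598). Tubg1, the gamma-tubulin of microtubule nucleation, and Tuba4a fell to 0.790-fold and 0.787-fold. Tubb2a rose to 1.45-fold, Tuba8 to 1.85-fold and Tubb2b to 302 and 324 with TMP269, against 233 and 215 with DMSO, and tubulin genes of 1 family are alike enough for reads to be shared among them. Tuba1b kept its call without any 1 library. The number of the 15 genes called lower was 2 without TMP269 replicate 1, TMP269 replicate 2 or DMSO replicate 2, and the number called higher was then 1. With TMP269 replicate 1 left out the limma adjusted p was 0.128 for Tuba4a, 0.119 for Tuba8 and 0.0529 for Tubb2b, and with TMP269 replicate 2 left out it was 0.0839 for Tubg1, 0.0723 for Tubb2a and 0.122 for Tubb2b. Without DMSO replicate 2 it was 0.0734 for Tuba4a, 0.0721 for Tuba8, 0.0724 for Tubg1 and 0.111 for Tubb2b. Over 16 alternatives the ranges were 1.69e-05 to 0.128 for Tuba4a, 5.71e-05 to 0.119 for Tuba8, 8.69e-05 to 0.0839 for Tubg1, 0.000165 to 0.0723 for Tubb2a and 0.00112 to 0.122 for Tubb2b. Among the 5 tubulin folding cofactors Tbca to Tbce, which act after the chaperonin, 0 were called (limma, 0 at an unadjusted p under 0.05, and 0 in edgeR and DESeq2), and 1 was called lower without TMP269 replicate 2.

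**Figure D4:**
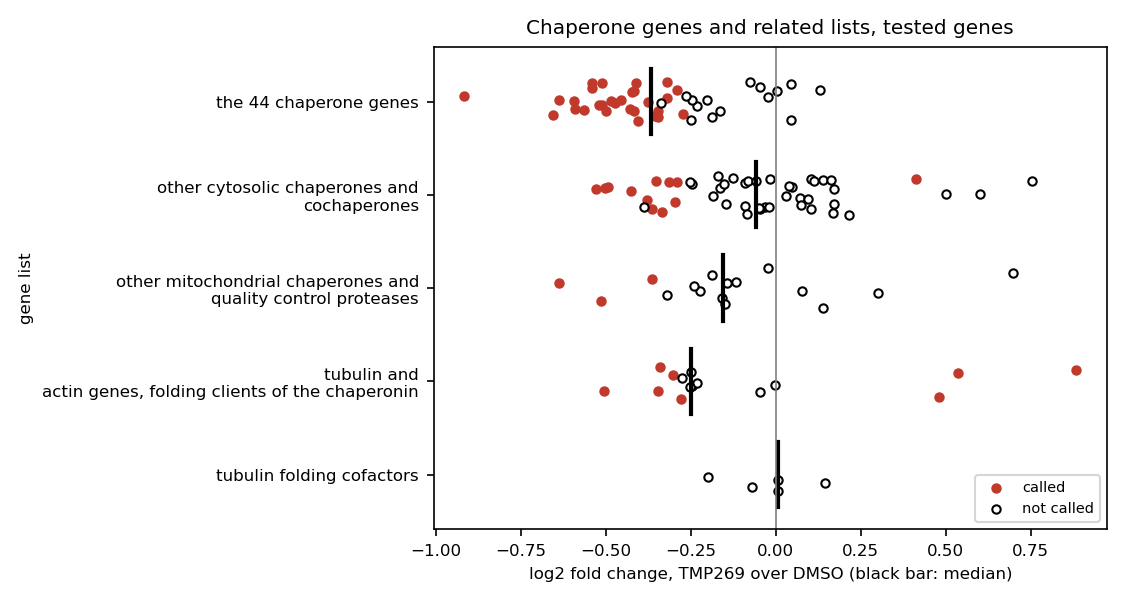
Points give the log2 fold change (TMP269 over DMSO) of each tested gene in the 44 chaperone genes and in 4 related lists, filled where called, with the median as a black bar. The median of the 44 chaperone genes lies furthest to the left, and filled points to the right of 0 are 1 further cytosolic chaperone and 3 tubulin genes.

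Fkbp5 is also a well-known target of the glucocorticoid receptor, so a list of 11 such genes was set beside it. Of 10 tested, 2 fell, Fkbp5 and Sgk1, and 2 rose, Tsc22d3 and Dusp1. These are few genes, and over all tested genes 14.7% fell and 12.8% rose. With equal library totals, 1 gene of the list was called lower and 3 higher. Sgk1, a kinase gene, stood at 818 and 735 with TMP269, against 1778 and 1399 with DMSO (limma adjusted p = 0.000972). Tsc22d3, which encodes GILZ, a leucine zipper protein, stood at 502 and 504 with TMP269, against 381 and 361 with DMSO (limma adjusted p = 0.0169), and the phosphatase gene Dusp1 rose to 1.28-fold (limma adjusted p = 0.0414). Both rises were lost without TMP269 replicate 2 (0.0592 and 0.241) or DMSO replicate 2 (0.0742 and 0.155), that of Tsc22d3 also without TMP269 replicate 1 (0.0601) and that of Dusp1 without DMSO replicate 1 (0.0541), in ranges of 0.000313 to 0.0742 for Tsc22d3 and 0.00197 to 0.241 for Dusp1 over 16 alternatives.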

How the data were processed

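RNA sequencing of 2 TMP269 and 2 DMSO libraries of mouse Th17 cells was analysed. The deposited values are a normalised signal, read counts divided by 1 size factor per library by the authors, as the values themselves show. Multiplying by the factors (0.967 and 1.05 for TMP269 replicates 1 and 2, 1.11 and 0.829 for DMSO replicates 1 and 2) returned whole reads for 100% of values, within 1e-06 of a whole number. The build mm9 and the tools TopHat2 2.1.0, Bowtie2, DESeq2, HTSeq and CASAVA 1.4 are named, without roles, per the submitters' processing notes. No annotation, strand setting or treatment of multiply matching reads was given in the sources used here, so overlapping genes and genes with near-identical copies are uncertain. The table's control columns are named WT and were matched to the DMSO samples through the sample descriptions. The 4 chromatin and 2 input libraries were not used here. The Th17 marker list is not reported here.

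The 12535 genes reaching a value of 10 in 2 or more libraries were compared on the log2(value + 1) scale by limma 3.58.1 (R 4.3.3), with its variance trended on level, no covariate, two-sided tests and Benjamini-Hochberg adjustment over all of them. Fold changes are on that scale, which understates the change of low genes. An exact test of 2 against 2 cannot go below p = 0.333, so p-values rest on the spread that limma pools over genes. Whether replicates were separate cultures or animals is not stated by the labels, and p-values then reflect only how these samples vary. Replicates differed by more than sampling noise, with a chi-square per degree of freedom of 11.3 in the TMP269 pair and 21.9 in the DMSO pair, or 9.89 and 10.7 without Rn45s, a ribosomal RNA gene. On simulated data with these depths, limma recovered 74.6% of 67 genes changed by 1.5-fold among 12397 genes in the TMP269 against DMSO comparison. Of all its calls there, 6.15% were false. The simulation drew genes independently with 1 dispersion (0.00621) for all, so it lacks shifts that genes share between replicates. The median fold of the 44 genes, 0.776, is a smaller change than 1.5-fold, and recovery at that size was not simulated. Alternatives were edgeR 4.0.16 and DESeq2 1.42.0 on recovered reads, limma-voom, other scalings, filters and pseudocounts, the replicate number as a block and each library left out. Equal totals without Rn45s was added after the data were seen.

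The 44 genes, the other lists and the rule for genes given in full were chosen with earlier results of these data known. The rule took the 4 called members with the smallest p in each direction, the HSP90 and heat shock factor genes, the extremes of each class and up to 3 called genes per direction in other lists. Hspa1a, Hspa1b and the remaining members were added for completeness.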

Additional observations from a re-analysis of the deposited data

How the results depend on the processing

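The 29 falls and 0 rises among the chaperone genes stayed within 1.5 times in count under all 16 alternatives, with 20 to 32 members called lower when 1 library was left out, and no member changed sign among those called. The median log2 fold change of the 44 genes was -0.26 both in edgeR scaled to total library size and with equal totals, -0.27 when Rn45s was left out of those totals (an alternative chosen after seeing the data) and -0.29 with totals without the 20 most abundant genes. These scalings moved the median of all genes by 0.08 to 0.10. With 1 library left out the members' median ran from -0.45 to -0.32. Over all tested genes, 1042 were called lower with equal totals, 1053 in edgeR scaled to total library size and 1151 with Rn45s left out of the totals, and with 1 library left out 1015 to 1873 were lower and 1063 to 1802 higher. The cause was not tested.

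With the replicate block, 3352 genes were called lower and 3008 higher, and 36 of the 44 members were lower and 0 higher, with Dnaja1, Dnajb6, Cdc37, Bag1, Pfdn1, Pfdn4 and Vbp1 gained. Samples with the same number deviated together (r = 0.371 across genes), but with 2 pairs both values are the same by construction and the labels name no shared batch, so the numbers are not taken as pairs. A group reduced to 1 library was taken to vary as much as the other group. The shallowest members, Bag2 and Bag3, had 204 to 473 reads in a library and log2 standard errors of 0.13 and 0.13, against a median of 0.09 over the 44 genes. With 2 libraries per group, small changes could not be told from none.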
